A study of Mus musculus with 4 samples.

Results

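The 8 genes described here hold back or carry out the mitochondrial route of programmed cell death. They are the anti-apoptotic BCL2 family genes Bcl2, Bcl2l1, Bcl2l2 and Mcl1, the apoptosome genes Cycs, Apaf1 and Casp9, and the caspase inhibitor gene Xiap. They were taken by gene name from the array annotation, with every probe kept, which gave 13 probes of the 55675 that had a value on every array. Bcl2, Apaf1, Casp9 and Xiap had 1 probe each, Bcl2l1, Bcl2l2 and Mcl1 had 2, and Cycs had 3. All 13 probes were well above background on all 4 arrays, by the scanner's own flag for that.

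In the mitochondrial pathway, BH3-only proteins such as PUMA and NOXA are made or released in a stressed cell and bind the anti-apoptotic proteins BCL2, BCL-XL, BCL-W and MCL1. When these guardians are occupied, BAX and BAK open the outer mitochondrial membrane and cytochrome c leaves. Cytochrome c binds APAF1, which assembles into the apoptosome and activates caspase 9, and XIAP can still block the caspases after that step. p53 induces several BH3-only genes, and MCL1 is a protein on which blood stem and progenitor cells are known to depend for survival.

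RNA came from LSK cells, the lineage-negative Sca-1-positive cKit-positive fraction of mouse bone marrow in which blood stem and early progenitor cells lie. The mice were males of the C57BL/6 background, aged 12 weeks when sampled. The 4 groups were WT, Aspp1-/-, p53-/- made from Mx1-Cre(+)p53flox/flox mice, and Aspp1-/-p53-/- made from Mx1-Cre(+)Aspp1-/-p53flox/flox mice. The design asks what loss of Aspp1, a gene whose protein binds p53, does with and without p53. All 4 groups, WT included, had received pIpC, an RNA mimic that switches on the interferon-driven Mx1-Cre, in 5 injections from the age of 8 weeks, and the cells were taken 4 weeks later. The protocol gives 400 μg of pIpC for every group, while the labels of the single samples read 400 μg for WT, 401 μg for the Aspp1-/- pool, 402 μg for the p53-/- pool and 403 μg for the double mutant. The Mx1 promoter is active in many tissues, so p53 was not removed from blood cells alone.

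Each array held the RNA of 3 mice of 1 genotype, pooled, so no group has a replicate and the spread between mice is unknown. A difference between 2 arrays therefore has no test, and values are given with the scanner's error model for the spot, which covers technical error only. The p53-/- and Aspp1-/-p53-/- arrays lay in slide row 2 and came from the mice with Mx1-Cre, and the others lay in row 1 and came from mice for which no Cre is given, so slide row, Cre and p53 loss cannot be told apart. The genotypes showed in the targeted genes. Values are listed in the order WT, Aspp1-/- (without Aspp1), p53-/- (without p53) and the double mutant Aspp1-/-p53-/- (without both). Ppp1r13b, the gene of ASPP1, had signals of 13182 in WT, 2247 without Aspp1, 12759 without p53 and 2060.1 without both, and Trp53, the gene of p53, had signals of 730.4, 820.2, 164 and 169 in the same order. All 10 LSK marker genes, among them Kit, Cd34 and Meis1, were well above background on the 4 arrays, and none was 2-fold apart in any comparison. Of named genes by their brightest probe, 1.06% to 2.73% were 2-fold higher and 1.46% to 3.34% were 2-fold lower, depending on the comparison. At such shares a list of 10 genes cannot show whether the sorted cells were alike between the genotypes.

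The probes on which the results turn are shown because probes of the same gene did not always move together. Each is read 5′ to 3′ from the deposited scanner files. A stretch of 30 bases is given for most, and all 60 bases for the Bcl2 probe and the second Bcl2l1 probe. Capitals mark AATAAA, the usual polyadenylation signal of a transcript's end, and where several copies overlap, only the first.
Bcl2: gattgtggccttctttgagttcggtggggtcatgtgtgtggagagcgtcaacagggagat
Bcl2l1 probe 1: gtgcagttcagtAATAAAtggtgtctgtga
Bcl2l1 probe 2: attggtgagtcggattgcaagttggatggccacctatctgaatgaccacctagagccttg
Bcl2l2 probe 1: cccacttacactagggcatacatatactat
Bcl2l2 probe 2: ggtcgtattaaaAATAAAtaaataaagccc
Mcl1 probe 1: gctgcttggaaagatggctctcagcaaaat
Mcl1 probe 2: tgcagcttctctagttagaaatgtatttct
Cycs probe 3: tgaagattgctaAATAAAggacatgtcgga

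AATAAA was searched as written and as its reverse complement in the 60 bases of each probe. It was found in the probes' own direction in 3 of the 13 probes, the 3 that carry capitals above, and in 10.1% of all 55675 probes on the array. In the reverse direction it was found in 0 of the 13 and in 3.74% of all. The second Bcl2l2 probe stood out by its base composition, with 21.7% G and C. No stretch of 18 or more bases was shared between these 13 probes and a probe of another gene, the longest being 17 bases for Bcl2l1 probe 1 and Bcl2l2 probe 2.

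Signals below are linear, background-subtracted and not scaled. Differences are on the log2 scale, after division of each signal by the 75th percentile of its array (571 in WT, 599 without Aspp1, 580.4 without p53 and 537 without both). A log2 difference of 1 is 2-fold, and 2-fold was the rule for calling a difference. Levels of different probes were not compared as amounts of RNA. They were used to rank probes by brightness, and signals were summed over the genes of a list on each array. In bulk RNA, fewer cells of a type and less RNA per cell cannot be told apart.

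**Figure D1:**
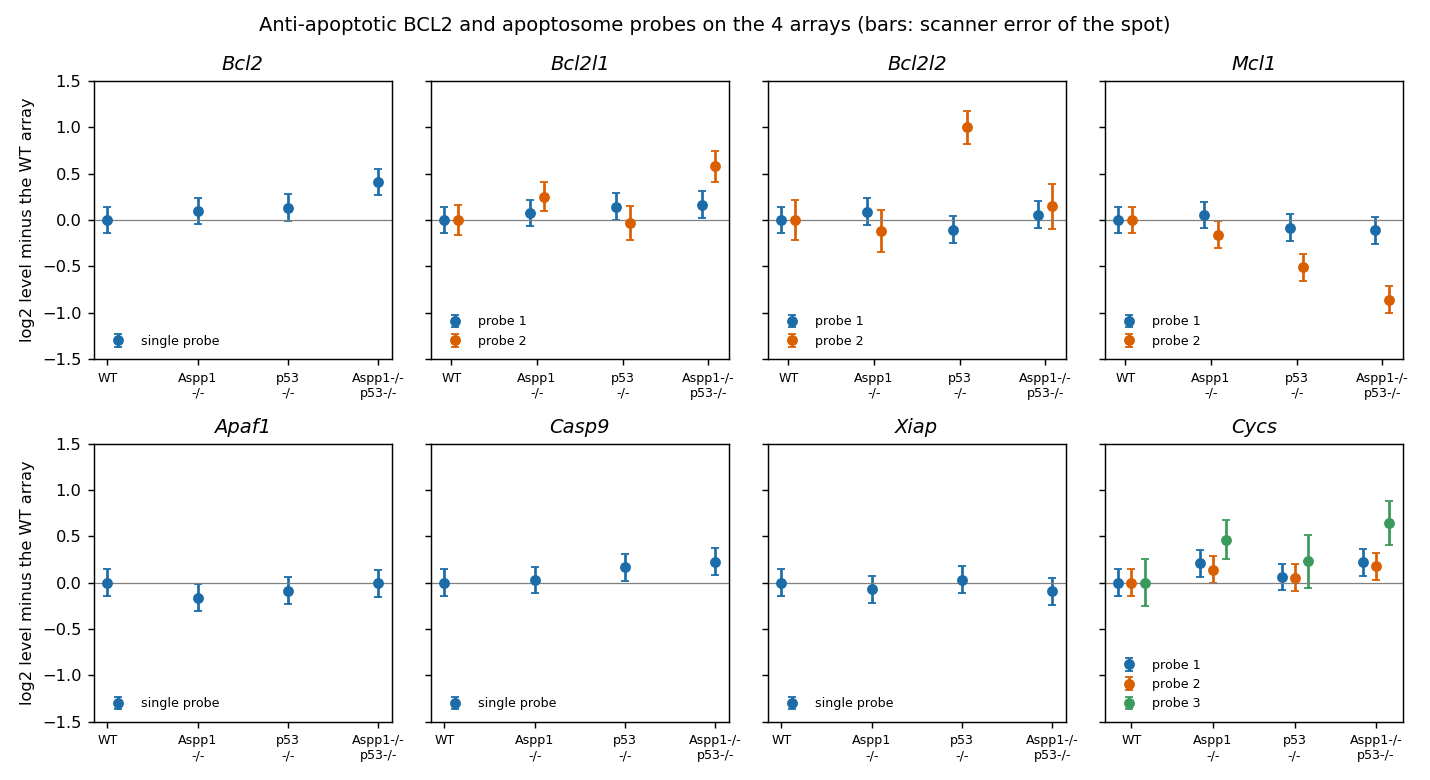
Log2 level of each of the 13 probes on the 4 arrays, scaled to the 75th percentile and drawn relative to the WT array of the same probe. Each point is 1 array of RNA pooled from 3 mice, and bars are the scanner's error of the spot. Most points lie within 0.25 of WT, and the points beyond it belong to Bcl2, Mcl1 probe 2 and the dim probes Bcl2l1 probe 2, Bcl2l2 probe 2 and Cycs probe 3.

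As a group the 8 genes differed little between the 4 genotypes. In Aspp1-/- against WT, 0 of the 13 probes were 2-fold apart, as were 0.503% of the 26458 probes that all 4 arrays measured well above background. In p53-/- against WT it was 1 of 13, the second Bcl2l2 probe, against 1.2% of all. In Aspp1-/-p53-/- it was 0 of 13 against WT (2.43% of all), 0 of 13 against p53-/- (1.53%) and 0 of 13 against Aspp1-/- (1.71%). At a difference of 1.5-fold the counts in the same order were 0, 1, 2, 2 and 1 of 13, against 2.4%, 3.92%, 7.76%, 4.3% and 5.82% of all. Spread over 13 probes, each of the 2-fold shares comes to less than 1 probe, so the 2-fold counts cannot set these probes apart from all probes. Each 1.5-fold count other than 0 was a larger share of the 13 than of all, but rests on 1 or 2 probes.

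Against WT, 9 of 13 probes were higher in Aspp1-/-, as were 52.0% of all 26458, with a median difference of 0.08 against 0.01 over all. In p53-/- 8 of 13 were higher, close to the 54.2% of all, with a median of 0.06 against 0.02. In Aspp1-/-p53-/- 9 of 13 were, against 52.5% of all, with a median of 0.17 against 0.01. These comparisons share the WT array, and probes of the same gene share transcripts, so the counts are not independent. The Aspp1-/-p53-/- array was the highest of the 4 for 7 of the 13 probes, and for 29.9% of all probes. WT was the lowest for 6 of 13, and for 33.3% of all.

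**Figure D2:**
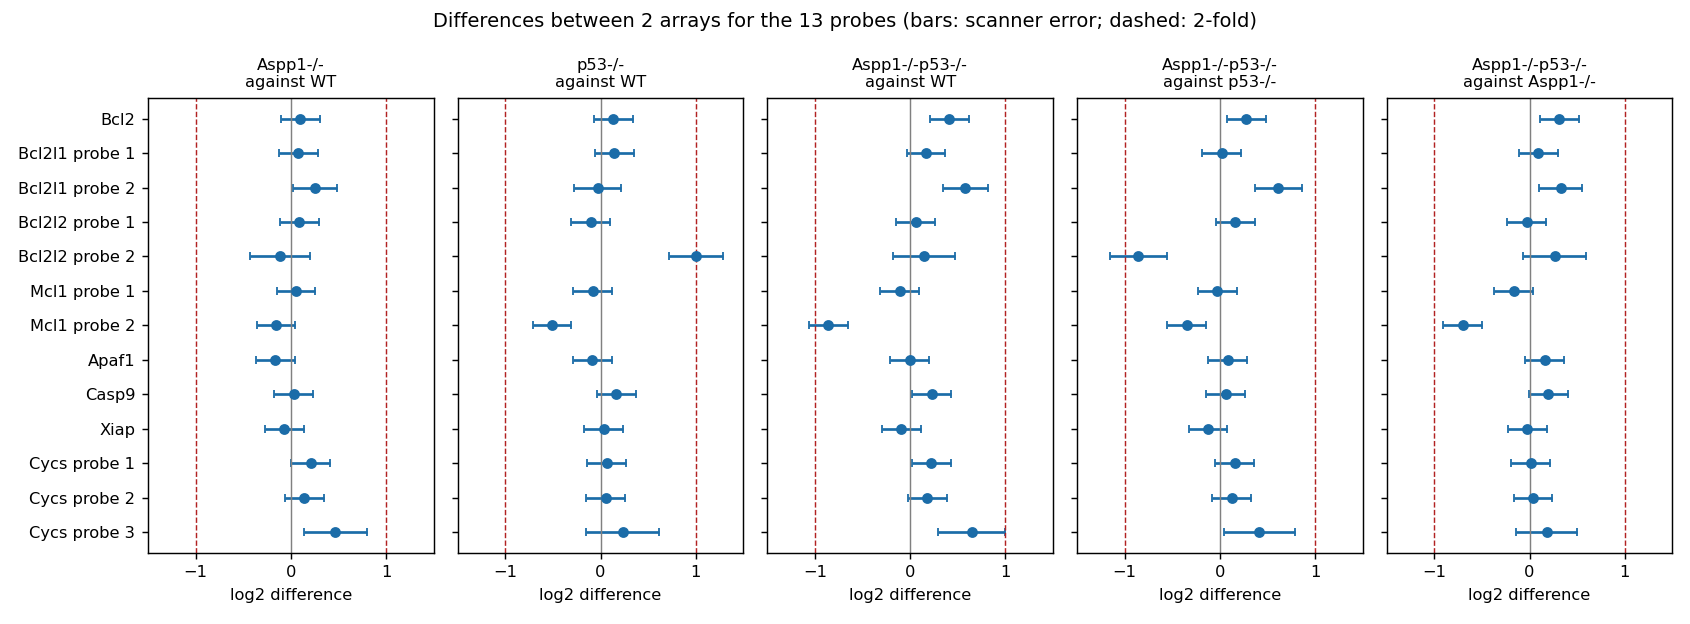
Log2 differences of the 13 probes in the 5 comparisons of 2 arrays. Bars are the scanner error of the difference, about 0.20 for bright probes and up to 0.38 for dim ones, and dashed lines mark 2-fold. Mcl1 probe 2 lies left of 0 by more than its error in the 4 comparisons other than Aspp1-/- against WT, and Bcl2l2 probe 2 reaches 2-fold in p53-/- against WT alone.

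Bcl2, which holds BAX and BAK in check and gives the family its name, was measured by 1 probe (NM_177410, mm9 chr1:108608970-108609029, minus strand). Its signal was 3209.6 in WT, 3605 without Aspp1, 3579 without p53 and 4013 without both. WT was the lowest, the 2 single mutants lay together and the double mutant was the highest. Aspp1-/-p53-/- was 1.33-fold higher than WT, a log2 difference of 0.41 with a scanner error of 0.20, and 14.5% of all probes differed at least as much. Over p53-/- the difference was 0.28 and over Aspp1-/- it was 0.31, both larger than 1 scanner error and smaller than 2. The single mutants differed from WT by 0.10 and 0.13, within the error.

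Bcl2l1, the gene of BCL-XL, was measured by a bright and a dim probe that lie 48781 bases apart in the genome. Probe 1 (NM_009743, mm9 chr2:152606404-152606463, minus strand) had signals of 5372 in WT, 5940.5 without Aspp1, 6042 without p53 and 5666 without both. After scaling these spanned a log2 range of 0.17, and 65.1% of all probes had a range at least as wide. No pair of arrays differed beyond the scanner error. Probe 2 (mm9 chr2:152655185-152655244) was dim, with signals of 78.0 in WT, 97.6 without Aspp1, 77.6 without p53 and 109.7 without both. WT and p53-/- were alike and the arrays without Aspp1 were higher. Its differences were 0.58 for Aspp1-/-p53-/- against WT and 0.61 against p53-/-, with errors of 0.23 and 0.25. With normexp background correction they came down to 0.26 and 0.38, and Aspp1-/- against WT went from 0.25 to 0.07. That correction adds an offset of 50 to every signal, which by itself makes the differences of dim probes smaller. The gap between the probes in the difference from WT was 0.41 in the double mutant, with an error of 0.31.

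Bcl2l2, the gene of BCL-W, held the single call of the set, and its 2 probes did not share it. Probe 1 (NM_007537, mm9 chr14:55506840-55506899, plus strand) had signals of 541 in WT, 604 without Aspp1, 512 without p53 and 530.0 without both. Its range was 0.19 on the log2 scale, and no pair differed beyond the error. Probe 2 (mm9 chr14:55507008-55507067) starts only 168 bases away and had signals of 35.2, 34.1, 71.7 and 36.7 in the same order. The p53-/- array alone was high, by 1.0 with an error of 0.28, while probe 1 was lower there by 0.10. This probe was near background, with a signal between 0.874 and 1.89 times the local background of its spot, and is the probe with the A- and T-rich sequence shown above. Its difference of 1.0 became 0.48 with normexp, where the offset of 50 by itself brings down a difference between signals this dim. It was 0.89 with quantile normalization, short of 2-fold. In the authors' deposited value table it was just under 2-fold.

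Mcl1, the gene of a short-lived guardian protein, had the largest differences among the bright probes, and they were those of 1 of its 2 probes. Probe 1 (NM_008562, mm9 chr3:95466855-95466914, plus strand) had signals of 36983 in WT, 40288 without Aspp1, 35509 without p53 and 32189.9 without both. These spanned 0.17 on the log2 scale, within the scanner error for every pair of arrays. Probe 2 (mm9 chr3:95465543-95465602) lies 1312 bases upstream, nearer the gene's start, and had signals of 15604, 14689.9, 11143 and 8098 in the same order. Each genotype in that order was lower than the one before, and the double mutant had the lowest signal.

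On the log2 scale Mcl1 probe 2 differed from WT by −0.16 without Aspp1, −0.51 without p53 and −0.86 without both, each with a scanner error of 0.20. The first lies within the error, so WT and Aspp1-/- are not separated. The last is 1.81-fold lower, and 3.36% of all probes differed as much in either direction. Aspp1-/-p53-/- was lower than Aspp1-/- by a log2 difference of −0.70, as large as or larger in 3.97% of all probes, and than p53-/- by −0.35. All of these are short of 2-fold.

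The difference between the Mcl1 probes was larger than the scanner error on both arrays without p53. Their log2 differences from WT lay 0.75 apart in Aspp1-/-p53-/-, with an error of 0.29, 0.43 apart in p53-/- and 0.21 apart, within the error, in Aspp1-/-. Among the 3886 genes with 2 such probes, the median gap between Aspp1-/-p53-/- and WT was 0.12, and 2.93% had a gap as large as that of Mcl1. Which transcripts each probe reads was not examined, since a transcript annotation of the mm9 build was not used here. In a count chosen after the Mcl1 values were seen, 2884 genes had 2 probes at least 500 bases apart. The downstream probe had the higher difference in 59.2% of them for Aspp1-/-p53-/- against WT, with a median gap of 0.05, and in 55.5% for Aspp1-/- against WT.

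**Figure D3:**
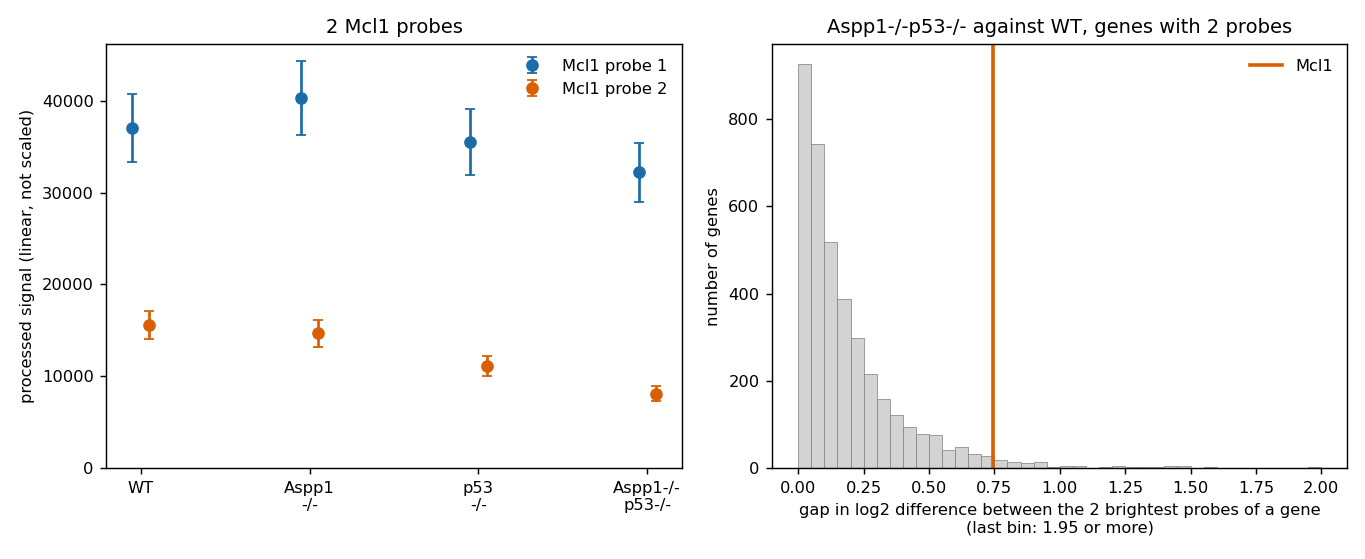
Left, processed signal of the 2 Mcl1 probes on the 4 arrays (linear axis from 0, not scaled between arrays, bars for the scanner error). Right, gap between the log2 differences of the 2 brightest probes of each of 3886 genes in Aspp1-/-p53-/- against WT, with the gap of Mcl1, 0.75, as a line. Probe 2 goes from 15604 to 8098 while probe 1 goes from 36983 to 32189.9, and the Mcl1 line lies in the right tail of the genes.

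Cycs, the gene of cytochrome c, was measured by 3 probes (NM_007808, chromosome 6, minus strand) whose order of genotypes was the same. Probe 1 (mm9 chr6:50515092-50515151) had signals of 19331 in WT, 23449 without Aspp1, 20534 without p53 and 21177 without both. Probe 2 (mm9 chr6:50514522-50514581) had signals of 5973, 6917, 6315 and 6360.2. Probe 3 (mm9 chr6:50512563-50512622) was near background, with signals of 30.1, 43.7, 36.0 and 44.3. After scaling, WT was the lowest, then p53-/-, then Aspp1-/-, and Aspp1-/-p53-/- was the highest on all 3, and their differences had the same sign in 5 of 5 comparisons. With normexp background correction they had it in 3 of 5, since p53-/- against WT (−0.00095, 0.039 and −0.058) and the double mutant against Aspp1-/- (−0.080, −0.032 and 0.10) were mixed, so that order does not hold under both corrections. The sizes were small. Aspp1-/- exceeded WT by 0.21 on probe 1 and 0.14 on probe 2, with errors of 0.20, and by 0.47 on probe 3, with an error of 0.33. Aspp1-/-p53-/- exceeded WT by 0.22, 0.18 and 0.64. With normexp, whose offset of 50 exceeds the signals of probe 3, its values came down to 0.07 in Aspp1-/- and 0.18 in Aspp1-/-p53-/-. Without normexp, Aspp1-/- and Aspp1-/-p53-/- were within 0.04 of each other on the bright probes. Cycs has processed copies in the mouse genome, and signal from them was not separated.

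Apaf1, the scaffold of the apoptosome and a known p53 target, was measured by 1 probe (NM_001042558, mm9 chr10:90452580-90452639, minus strand). Its signal was 400.0 in WT, 375 without Aspp1, 383 without p53 and 374 without both. The 4 arrays lay within 0.16 on the log2 scale, no pair differed beyond the scanner error, and 65.2% of all probes had as wide a range. The arrays without p53 differed from those with it by −0.09 against WT and 0.16 in the absence of Aspp1.

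Casp9, the initiator caspase that the apoptosome activates, had signals of 2503 in WT, 2681 without Aspp1, 2857 without p53 and 2755 without both (NM_015733, mm9 chr4:141371773-141371832, plus strand). After scaling, the order from WT up to the double mutant was that of Bcl2, over a narrower range (0.23 against 0.41). The largest difference, 0.23 between Aspp1-/-p53-/- and WT, was just over the scanner error of 0.20, and 32.1% of all probes differed as much. Neighbours in that order were not separated by more than the error.

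Xiap, the direct caspase inhibitor, had signals of 5064 in WT, 5064 without Aspp1, 5262 without p53 and 4466 without both (NM_009688, mm9 chrX:39462720-39462779, plus strand). Part of the lower raw signal of the last array went with its lower 75th percentile. A log2 difference of −0.09 from WT remained after scaling, within the scanner error of 0.20. After scaling the range over the 4 arrays was 0.12, the narrowest of the 13 probes, and 77.7% of all probes had a range at least as wide.

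The departure from additivity, which is the double mutant's log2 level less both single mutants' levels plus that of WT, reached 1 in size for 0 of the 13 probes and for 2.05% of all. It was 0.18 for Bcl2, −0.19 for Mcl1 probe 2 and −0.08 for Mcl1 probe 1, within the error of 0.29. The farthest from 0 were the dim probes, −0.74 for Bcl2l2 probe 2 with an error of 0.44 and 0.36 for Bcl2l1 probe 2 with an error of 0.34.

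The 4 arrays allow 1 fit across all probes, an additive model in limma with a term for Aspp1 and a term for p53, which leaves 1 residual degree of freedom. At an adjusted p of 0.05 it called 0 of the 26458 probes (0%) for Aspp1 and 0 (0%) for p53, and so 0 of the 13 here. The targeted genes Ppp1r13b and Trp53, at −2.59 and −2.03 in Aspp1-/-p53-/- against WT, were not called either. The 0 of 13 therefore does not show that these probes are unchanged. At an unadjusted limma p of 0.05, 2140 of the 26458 probes passed for Aspp1 and 3290 for p53, among them 2 and 1 of the 13. Counts this small do not set the 13 apart from all probes. Mcl1 probe 2 had the smallest p of the 13 for p53, with a term of −0.61 (SE 0.084) and an adjusted limma p of 0.31. Its unadjusted limma p-value was 0.00471. Cycs probe 3 and Bcl2l1 probe 2 had unadjusted limma p-values of 0.00604 and 0.0338 for Aspp1, with terms of 0.44 and 0.43 and an adjusted p of 0.607 for each. Both are dim probes whose differences shrank with normexp, as given above, though its offset of 50 does this to dim probes by itself. For Bcl2 the terms were 0.19 for Aspp1 and 0.22 for p53, with adjusted p-values of 0.632 and 0.435.

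Genes past 2-fold were found among those whose proteins bind the anti-apoptotic guardians. Among 11 effectors and BH3-only genes, 9 were measured and 3 were 2-fold lower in Aspp1-/-p53-/- than in WT, against 3.34% of named genes taken by their brightest probe. Pmaip1, which encodes NOXA, the BH3-only partner of MCL1, had signals of 2232 in WT, 2100.3 without Aspp1, 1312 without p53 and 526 without both, a difference of −2.0 between the last and WT. Bbc3, which encodes PUMA, had signals of 4471, 3574, 2073 and 1870.2, so that both arrays without p53 were low. Bcl2l11, which encodes BIM, had signals of 175, 132, 109 and 66.7, a difference of −1.31 in the double mutant. The brightest in WT were the effector gene Bak1, the BH3-only gene Bad and Bbc3, which differed from WT by 0.19, 0.09 and −1.17 in Aspp1-/-p53-/-, and the effector gene Bax was at −0.08. In p53-/- against WT, 1 of the 9 was 2-fold lower (Bbc3, −1.13), against 2.06% of named genes, and in Aspp1-/- against WT 0 of 9 were, against 1.46%.

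The other steps of the pathway held no gene 2-fold apart in any of the 5 comparisons. Of named genes, 1.06% to 2.73% were 2-fold higher and 1.46% to 3.34% were 2-fold lower, depending on the comparison. A count of 0 in lists of 2 to 8 measured genes therefore does not set them apart from all named genes. Of 6 other anti-apoptotic BCL2 relatives, 2 were measured, with Bcl2l12 at 0.24 and Bcl2a1d at −0.37 in Aspp1-/-p53-/- against WT. Of 8 genes of mitochondrial release and of proteins that block XIAP and its relatives, 7 were measured, with a median of 0.15, and the brightest, the channel genes Vdac1, Vdac2 and Vdac3, were at 0.10, 0.15 and −0.09. The 5 further caspase genes had a median of 0.13, with Casp2 at 0.13, Casp8 at 0.13 and Casp6 at 0.10. The 8 other inhibitors of apoptosis had a median of −0.03, with Birc5, which encodes survivin, at 0.11, Birc6 at −0.06 and Naip5, one of a family of near copies whose probes may share signal, at 0.00. The 3 genes that control MCL1 protein turnover, Huwe1, Usp9x and Fbxw7, lay between −0.04 and −0.01. The 8 genes described here had a median of 0.11 by their brightest probes, and all named genes 0.02.

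Of 19 p53 target genes, a list that also holds Apaf1, Bax, Bbc3 and Pmaip1, 18 were measured. In Aspp1-/-p53-/- against WT 6 were 2-fold lower and 0 were 2-fold higher (3.34% and 2.39% of named genes), with a median of −0.33. Plk2, a kinase gene, was at −2.07, Cdkn1a, which encodes the cell cycle inhibitor p21, at −1.54, and Apaf1 at −0.01. Fas, a death receptor gene of the other apoptosis pathway, had signals of 67.4 in WT, 47.7 without Aspp1, 54.0 without p53 and 175 without both, the one array on which it was high. Its log2 difference from WT on that array was 0.998, just short of 2-fold. Printed signals average repeat spots on the linear scale and differences on the log2 scale, so for Fas they do not match. In p53-/- against WT 1 of 18 was 2-fold lower (2.06% of named genes). All 18 of 18 were below 0, with the same median of −0.33, against 0.03 over all named genes. In the double mutant 2 of the 18 were 2-fold lower than in p53-/- (3.23% of named genes) and 5 of 18 than in Aspp1-/- (2.69%), and Fas was the 1 gene 2-fold higher in both of these comparisons, at 1.36 and 1.57.

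**Figure D4:**
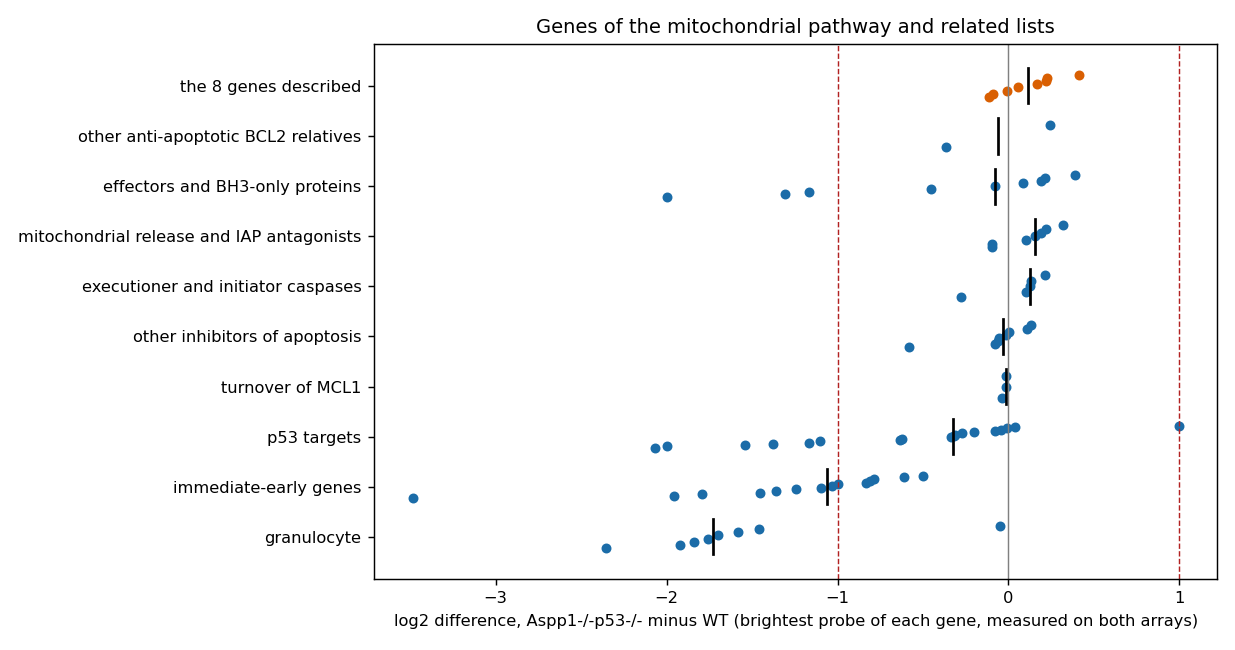
Log2 difference between the Aspp1-/-p53-/- and WT arrays for each gene of the lists, by its brightest probe, for genes measured on both arrays. Black bars are the medians of the points drawn and dashed lines mark 2-fold. The 8 genes described here lie between −0.11 and 0.41, while 3 effectors and BH3-only genes, 6 p53 targets, 8 immediate-early genes and 7 granulocyte genes lie at or below −1.

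The order of the genotypes on Mcl1 probe 2 was also that of the summed signal of the immediate-early genes. Immediate-early genes, which are induced within minutes of handling or stimulation, were lower in Aspp1-/-p53-/- than in WT for 15 of 15. Of these 9 were 2-fold lower, against 3.34% of named genes. Among the 14 measured on both arrays 8 were 2-fold lower, with a median of −1.06. Their summed signal was 1107440 in WT, 1052830 without Aspp1, 798586 without p53 and 452975 without both. Klf6, a transcription factor gene, was at −1.79 in Aspp1-/-p53-/- against WT, Nr4a1, a nuclear receptor gene, at −1.45 and Jun, a subunit of AP-1, at −0.81. The stress-induced factor gene Atf3 was at −3.49, Klf2 at −1.96 and Egr2 at −1.36. Egr3 was not well above background in p53-/- or Aspp1-/-p53-/-. The part of such genes in the Mcl1 result was not tested.

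Of the lists for cells outside the LSK gate, the granulocyte list held the most genes 2-fold lower in the double mutant than in WT. Of 9 granulocyte genes, 8 were 2-fold lower in Aspp1-/-p53-/- than in WT, against 3.34% of named genes. Among the 8 measured on both arrays 7 were 2-fold lower, with a median of −1.73. S100a9 had signals of 53988 in WT, 50241 without Aspp1, 49457 without p53 and 18476 without both, and the summed signal of the list was 87466, 79496, 79474 and 28312. These sums are not scaled between arrays, and those of the single mutants were nearly equal, so they give no order between the single mutants. In p53-/- against WT the median of the list was −0.22. Of 6 stroma and endothelium genes 4 were measured, with Cxcl12 at −2.20, Vcam1 at −2.05, Lepr at −0.58 and Pecam1 at 0.05 in the double mutant against WT. In the same comparison the monocyte and dendritic list had a median of 0.16 (5 of 6 genes higher), the B cell list 0.08 (5 of 7) and the erythroid list 0.08 (2 of 3), while 3 of 3 T and NK cell genes were lower, with a median of −0.23. Summed signals of the B cell list ran from 9751 to 12509, of the T and NK cell list from 1814 to 2517, of the monocyte and dendritic list from 8407 to 10709.9 and of the erythroid list from 1121 to 1333. Their part in the values of the 8 genes was not tested.

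Genes outside the set that followed the same pattern were sought by the root mean square distance between their 3 log2 differences from WT and those of a probe. For Bcl2l2 probe 2, the probe with the widest range (1.12), the nearest were Nqo1, Ptdss2 and 6530409C15Rik, at distances of 0.106, 0.106 and 0.116. For Mcl1 probe 2, chosen after its values were seen, they were Gm15645, P2ry10b and Jund at 0.0375, 0.0428 and 0.0432. Jund, a member of the AP-1 family, was at −0.23, −0.51 and −0.85 in Aspp1-/-, p53-/- and Aspp1-/-p53-/-. For Bcl2, chosen in the same way, they were Zfp329, Ccnf and 4921531C22Rik at 0.0195, 0.0204 and 0.0236. Each likeness rests on 4 arrays that share WT and was picked from 26458 probes.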

How the data were processed

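RNA of LSK cells from 4 genotypes was hybridised to 4 one-colour Agilent arrays of design 028005, labelled with Cy3 by a low-input kit, per the labels' protocols. Per the file headers, the scanner software was Feature Extraction 10.7.3.1 and probe positions are those of mm9. The deposited processed signal is a background-subtracted intensity on a linear scale with no scaling of one array to another. Raw intensity, local background intensity and 0 or 1 flags (other values, such as the mark for a spot well above background) are in the deposited files too. The authors' deposited value table holds log2 values. Its scale, centring and direction were worked out by comparison with the scanner values, and the constant taken from each array remains unknown. The median of its columns was −0.0661 (WT), −0.0422 (Aspp1-/-), 0.0267 (p53-/-) and 0.0478 (double mutant).

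Control spots and outlier spots (120 to 172 an array) were dropped, repeat spots were averaged, and log2 processed intensity was set relative to the 75th percentile of each array. Between 50.3% and 53.2% of probes were well above background, 0 were saturated, and spots of the same probe had a log2 standard deviation of 0.0781 to 0.0850. Their number, 1 array a genotype, limits the precision. Probes were named through their RefSeq accession (26760) or the symbol in the files (3818). A difference between 2 arrays was called at 2-fold, with no test. The additive model was fitted with limma 3.58.1 in R 4.3.3 over the 26458 probes that every array measured well above background, with Benjamini-Hochberg adjustment over all of them. The fit was also run on simulated arrays, with purely additive changes and noise near the spread of repeat spots. That run does not show what the fit can call on the real arrays.

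Named genes were the 8 members with every probe, in each list the genes at least 2-fold apart (up to 4, largest first) and the 3 brightest in WT, and the 3 genes nearest in pattern to the probe with the widest range. Of the longer lists, not every gene this rule gives is printed. The members and lists were chosen with earlier results of these data known. Alternatives were normexp background correction (offset 50), median scaling, quantile normalization, only the probes measured so on every array, the authors' value table, a 1.5-fold rule and the mean over a gene's probes.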

Additional observations from a re-analysis of the deposited data

Results flagged for a closer look

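In 5 of 26 pairs, a probe's difference for loss of one gene lay on opposite sides of 0 with and without the other gene. The same count was not made over all probes, so 5 of 26 cannot be read as many or few. The difference between them was not tested, since each side is 1 pair of arrays, and in 0 of the 5 were both sides larger than the scanner error. For Bcl2l1 probe 2, loss of p53 gave −0.03 with Aspp1 and 0.33 without it, 0.36 apart. For Apaf1, loss of Aspp1 gave −0.16 with p53 and 0.08 without it, and loss of p53 gave −0.09 with Aspp1 and 0.16 without it, which is the same 0.24 read both ways. For Mcl1 probe 1, loss of Aspp1 gave 0.05 with p53 and −0.03 without it, a change of −0.083. For Xiap, loss of p53 gave 0.03 with Aspp1 and −0.02 without it, a change of −0.055.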

How the results depend on the processing

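The single 2-fold call, 1 probe in p53-/- against WT, fell to 0 with normexp background correction, with quantile normalization and with the authors' value table. With a 1.5-fold rule the count in Aspp1-/-p53-/- was 2 against WT, 2 against p53-/- and 1 against Aspp1-/-. The additive model called 0 of the 13 probes in the 5 settings run, with a smallest adjusted limma p between 0.119 and 0.319. Of 65 probe differences, 65 stayed within the scanner error of their value with median scaling, with quantile normalization, with the all-array filter and with the authors' table. With normexp 60 did, and 5 changed sign (4 of them of Cycs, 1 of Apaf1 near 0), as did 1 with the authors' table. The 5 that moved were all of dim probes: Cycs probe 3 in Aspp1-/- (0.07) and Aspp1-/-p53-/- (0.18) and Bcl2l1 probe 2 in Aspp1-/-p53-/- (0.26) against WT, and Bcl2l2 probe 2, at 0.48 in p53-/- against WT, and at −0.31 between the double mutant and p53-/-. The normexp offset of 50 by itself makes such differences smaller, so these moves do not show which values are right. Averaging a gene's probes moved 7 of 20, and gave −0.49 for Mcl1 in Aspp1-/-p53-/- against WT. No array could be left out, since each group has 1. No paired analysis was possible because each genotype has 1 array of pooled RNA and no replicate number. Scanner errors reached 0.38 for dim probes, and the spread between mice is unknown.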
